A study of Homo sapiens with 13 samples.

Results

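The genes described here are the 8 Frizzled receptor genes FZD1 to FZD8 and the WNT co-receptor genes LRP5 and LRP6. They are 10 of the 56238 rows of a gene count table, matched by Ensembl identifier to symbol, and all 10 were among the 20320 genes with enough counts to be tested. The set was selected on FZD6 counts, which were lower in edited than in unedited clones. The FZD6 difference from unedited clones is therefore given as a description without a test. FZD6 stays among all genes tested, and where it passes the threshold there, this choice fixed that result, which is not evidence for FZD6. The other 9 genes entered as relatives of FZD6, and their differences were tested.

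Frizzled proteins are multi-pass membrane receptors whose extracellular cysteine-rich domain binds secreted WNT proteins. LRP5 and LRP6 are single-pass co-receptors that WNT proteins bring together with a Frizzled, after which Dishevelled is recruited, the complex that destroys beta-catenin is held back, and beta-catenin can act with TCF/LEF factors in the nucleus. Some Frizzled proteins, FZD3 and FZD6 among them, are best known from planar cell polarity, a branch that orients cells in a sheet without beta-catenin. The E3 ligases RNF43 and ZNRF3 remove Frizzled proteins from the cell surface, and R-spondins acting through LGR receptors oppose them.

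The samples were 13 monoclonal lines of 293T (HEK293T in the sample titles), a human embryonic kidney line that carries large T antigen. Every line came from cells that received lentiCRISPR v2 plasmids carrying Cas9 and a guide, and a single-stranded DNA repair template, aimed at the SNP rs199643834 in FLCN, the folliculin gene, followed by a short puromycin selection, sorting of single cells and genotyping. The 4 lines labelled WT carried the reference allele on all 3 genotyped copies (REF/REF/REF). The 7 lines labelled HET carried the alternative allele on 1 of 3 copies, and the 2 lines labelled HOM carried it on all 3. Each library was a separate clone, so the spread within a group is the spread between clones, and the unedited lines had passed through the same transfection, selection and cloning as the edited lines.

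Libraries held 44504068 to 54377639 counts assigned to genes. Levels are given as CPM, counts per 1000000 counts of a library whose size was scaled by TMM, which corrects for differences in RNA composition. FLCN, the edited gene, was at 26.1 to 50.5 CPM in WT, 27.4 to 64.0 CPM in HET and 23.7 and 36.7 CPM in HOM clones. Against WT, FLCN differed by -0.03 in HET (log2 scale, standard error, SE, 0.26, edgeR Benjamini-Hochberg adjusted p = 0.964) and by -0.30 in HOM (SE 0.36, adjusted p = 0.708), neither past the threshold of 0.05; an mRNA level does not check a single-base edit. The 20 expressed neighbours of FLCN had a median log2 deviation of -0.37 in HOM 1 and -0.62 in WT 2, relative to the median of the 13 clones, and FLCN copy number itself was not measured here. Of the 293T markers reported, VIM was at 207 to 739 CPM, KRT18 at 33.5 to 70.5 CPM and EYA1 at 11.0 to 34.9 CPM over the clones. KRT8 ran from 3.40 to 38.7 CPM and INA from 0.145 to 40.6 CPM, while NEFM and PAX2 stayed at or under 2.65 and 2.56 CPM. Of the 5 haematopoietic markers, 4 were under 1 CPM in every clone, as were 3 of 4 endothelial and 2 of 5 fibroblast markers, with summed levels of at most 3.13, 3.01 and 34.9 CPM.

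Sequences upstream of the annotated starts are shown for 4 of the 5 members with a promoter in the RefSeq table, 2 with fitted differences below 0 in edited clones (FZD4 and FZD5) and 2 above 0 (FZD8 and LRP5); none of these differences passed the threshold. Each is the 250 bases before the start in RefSeq on GRCh38.p14, 5′ to 3′ on the gene's strand, with capitals marking the GC box GGGCGG and the CCAAT-box core ATTGG on either strand; neighbouring GC boxes can share a base. The windows are chr11:86955396-86955645 on the minus strand for FZD4, chr2:207769907-207770156 on the minus strand for FZD5, chr10:35642297-35642546 on the minus strand for FZD8 and chr11:68312341-68312590 on the plus strand for LRP5.
FZD4: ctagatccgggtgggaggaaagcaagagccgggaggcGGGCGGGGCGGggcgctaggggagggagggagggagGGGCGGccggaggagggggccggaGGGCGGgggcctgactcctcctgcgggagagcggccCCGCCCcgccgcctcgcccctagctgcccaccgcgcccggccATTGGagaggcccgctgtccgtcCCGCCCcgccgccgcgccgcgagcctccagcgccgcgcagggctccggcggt
FZD5: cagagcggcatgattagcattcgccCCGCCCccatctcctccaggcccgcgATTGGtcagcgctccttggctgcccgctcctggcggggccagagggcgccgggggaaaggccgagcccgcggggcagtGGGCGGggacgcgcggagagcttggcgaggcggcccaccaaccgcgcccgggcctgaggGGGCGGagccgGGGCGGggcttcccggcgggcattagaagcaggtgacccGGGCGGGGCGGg
FZD8: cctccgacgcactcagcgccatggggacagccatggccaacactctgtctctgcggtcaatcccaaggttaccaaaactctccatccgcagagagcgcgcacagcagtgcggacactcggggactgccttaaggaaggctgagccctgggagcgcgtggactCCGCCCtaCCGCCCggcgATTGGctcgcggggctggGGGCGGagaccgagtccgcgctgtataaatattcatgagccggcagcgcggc
LRP5: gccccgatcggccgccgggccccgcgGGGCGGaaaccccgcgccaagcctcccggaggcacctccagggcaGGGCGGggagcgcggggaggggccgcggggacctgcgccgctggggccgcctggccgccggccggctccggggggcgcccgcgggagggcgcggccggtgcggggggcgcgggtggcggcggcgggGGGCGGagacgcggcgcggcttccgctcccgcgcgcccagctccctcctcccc

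FZD4 and FZD5 had 6 GC boxes each, and FZD8 and LRP5 had 3 each. A GC box was present in 45% of the 35116 promoters of the RefSeq table (250 bases before to 50 bases after the start), and ATTGG in 34.6%. Over that longer window, the GC content was 79.7% for FZD4, 77% for FZD5, 67% for FZD8 and 86.7% for LRP5, against a median of 58.7% over all promoters. None of the 4 windows held the E-box CACGTG, which 7.26% of promoters held, or the TCF/LEF core CTTTGA, which 12.9% held, on either strand. FZD1, the other member in the table, also had fitted differences below 0 and had 1 GC box and 1 ATTGG, so the number of GC boxes did not sort with direction over the 5 members.

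FZD6 (ENSG00000164930.7, chromosome 8) had lower counts in all 9 edited clones than in any of the 4 WT clones, which is the observation that selected the set. Its levels were 92.9, 119, 142 and 114 CPM in WT 1 to WT 4. In the 7 HET clones they ran from 56.4 CPM over a median of 61 to 83.6 CPM, and they were 69.2 and 59.0 CPM in HOM 1 and HOM 2. The highest edited clone, HET 6, lay below the lowest unedited clone, WT 1. The WT mean was 117 ± 20.2 CPM (SD, n = 4). The HET mean was 65.8 ± 9.90 CPM (SD, n = 7), and HOM clones averaged 64.1 ± 7.26 CPM (SD, n = 2).

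The fitted FZD6 difference on the log2 scale was -0.83 (SE 0.14) for HET minus WT and -0.87 (SE 0.20) for HOM minus WT. Both use the same 4 WT clones, so they are not separate observations. In bulk libraries, fewer cells with the transcript and less of it per cell cannot be told apart. As deviations in log2 CPM from the median of the 13 clones, the 20 expressed genes nearest to FZD6 had a median that averaged -0.05 over WT, -0.03 over HET and -0.00 over HOM clones. By clone this median ran from -0.31 to 0.15 in WT, -0.23 to 0.07 in HET and -0.05 to 0.04 in HOM. FZD6 itself averaged 0.74 over WT, -0.09 over HET and -0.12 over HOM clones. FZD6 shares its locus with the antisense gene BAALC-AS1, and the sources used here do not give the strand setting of the counting.

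**Figure D1:**
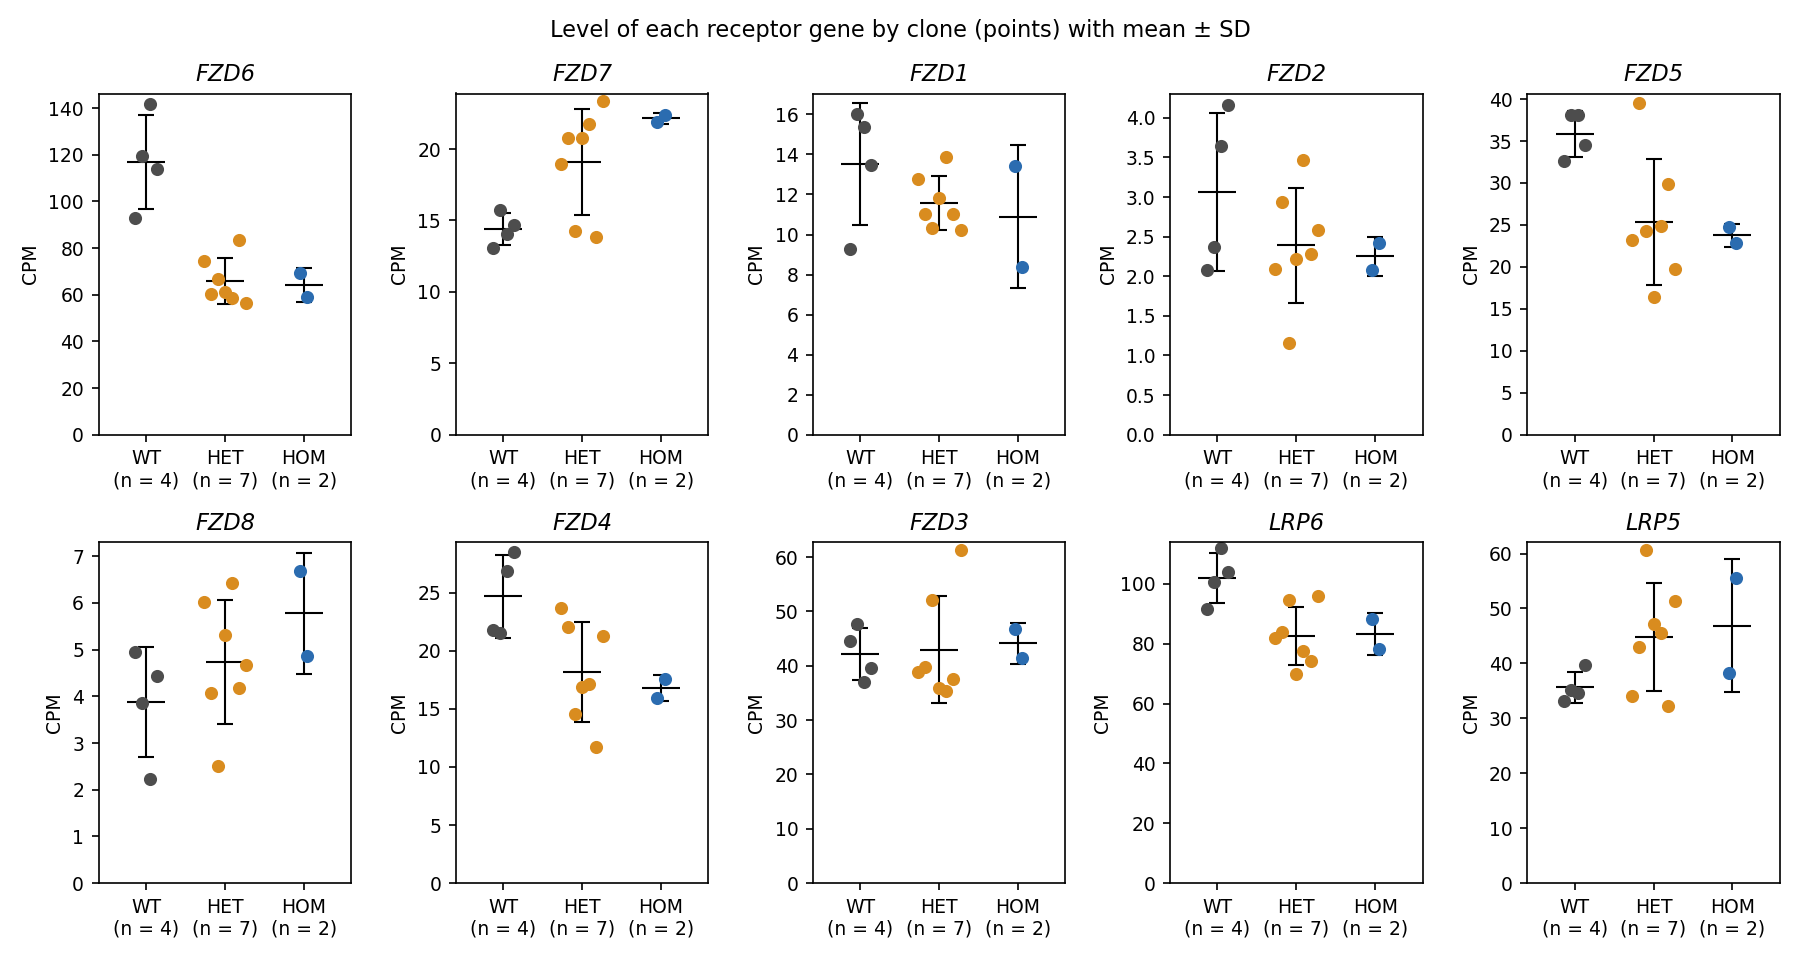
Level of each of the 10 receptor genes by clone, in CPM (vertical axes, each from 0) for WT (n = 4), HET (n = 7) and HOM (n = 2); points are clones and bars are mean ± SD. FZD6 is the only gene whose 7 HET points all lie on one side of the 4 WT points.

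Over all 20320 genes, edgeR's quasi-likelihood test called 26 genes in HET against WT at an adjusted p (Benjamini-Hochberg, two-sided) under 0.05, or 0.128% of genes. Of the 10 receptor genes 1 was called, FZD6, on the lower side (0.0837% of all genes), which the choice of the set fixed; no gene at all, FZD6 included, was called with only the groups compared, with 1 surrogate variable, without WT 2, HET 2 and HOM 1, or in 10 of the 13 fits that left out 1 clone. None of the other 9 was called by edgeR or by DESeq2, 4 of the 9 had an unadjusted edgeR p under 0.05 (18.5% of all genes did), and limma voom with sample weights called 2, FZD7 and LRP6, where it called 20.7% of all genes. The WT and HET clones did not overlap for 2.61% of all genes (1.38% with HET lower) and for 0 of these 9. The median log2 difference was -0.22 over the 9 genes and 0.01 over all genes tested.

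In HOM against WT, edgeR called 0 genes, or 0%. Among the 9 receptor genes, 3 (FZD4, FZD5 and FZD7) had an unadjusted p under 0.05, as did 14.4% of all genes, and DESeq2 and limma voom called 0 of the 9. The 2 HOM clones lay outside the range of the 4 WT clones for 4 of the 9, with FZD4, FZD5 and LRP6 lower and FZD7 higher; the ranges were apart for 25.6% of all genes, 12.8% with HOM lower and 12.8% with HOM higher. The median log2 difference was -0.29 over the 9 genes and -0.01 over all genes. Only 2 HOM clones enter this comparison.

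**Figure D2:**
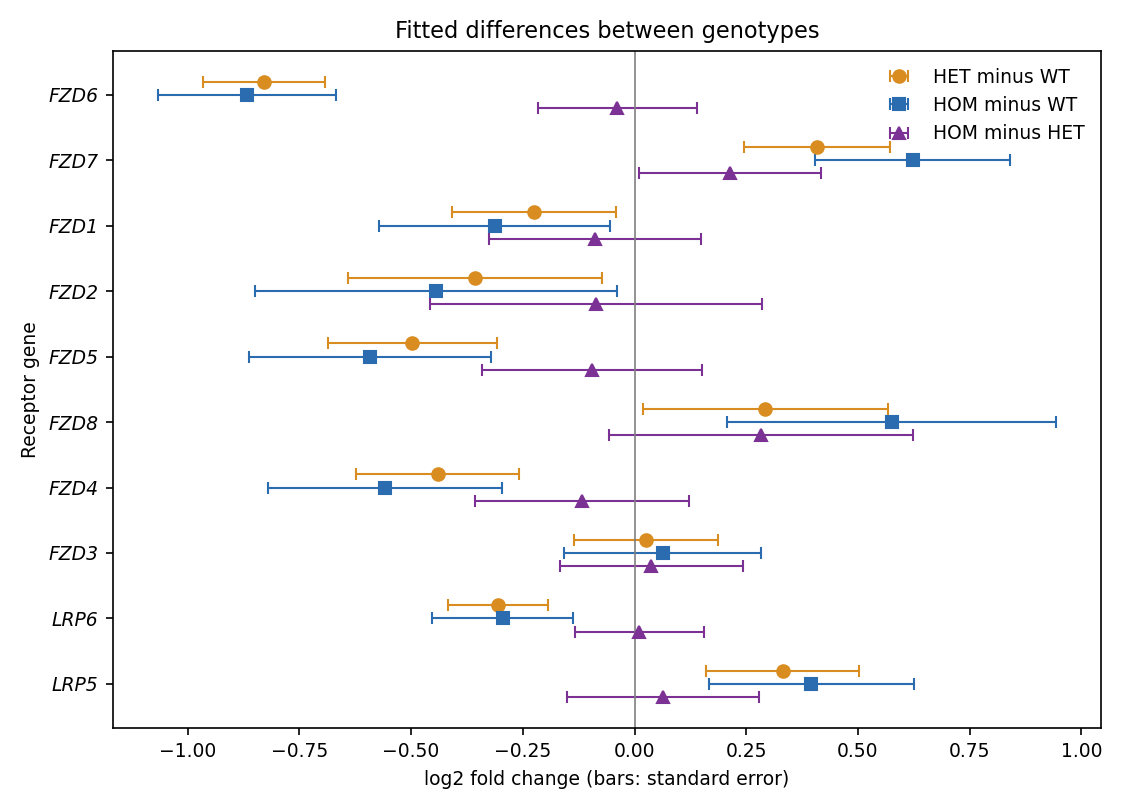
Fitted log2 fold changes of the 10 receptor genes (rows) for HET minus WT, HOM minus WT and HOM minus HET; symbols are estimates and bars are 1 standard error. FZD6 has the largest difference from WT in either genotype among the 10, and all HOM minus HET values lie between -0.12 and 0.28.

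FZD7, FZD1 and FZD2 form the subfamily of closely related receptors that can signal through beta-catenin. FZD7 (chromosome 2), a receptor much studied in stem cells and epithelial tumours, was at 13.0, 15.7, 14.1 and 14.7 CPM in WT 1 to WT 4. It ran from 13.8 over a median of 20.7 to 23.4 CPM in HET and was at 21.9 and 22.4 CPM in HOM. HET 3 and HET 6 lay among the WT clones, and the other 5 HET clones and both HOM clones lay above all 4. The log2 difference was 0.41 (SE 0.16, edgeR adjusted p = 0.206) for HET and 0.62 (SE 0.22, adjusted p = 0.249) for HOM against WT, neither past the threshold.

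FZD1 (chromosome 7), a receptor for several WNT proteins, was at 9.26, 16.0, 15.4 and 13.5 CPM in the WT clones. It ran from 10.2 over a median of 11.0 to 13.9 CPM in HET and was at 13.4 and 8.38 CPM in HOM. WT 1 lay below every HET clone and the other 3 WT clones lay in or above the upper part of the HET range. FZD1 differed on the log2 scale by -0.22 (SE 0.18, edgeR adjusted p = 0.537) for HET and -0.31 (SE 0.26, adjusted p = 0.579) for HOM. FZD2 (chromosome 17), which binds WNT5A among others, was the member with the fewest counts, 48 to 203 per library. Its levels were 2.08, 2.37, 3.65 and 4.16 CPM in WT, 1.16 to 3.47 CPM in HET and 2.08 and 2.42 CPM in HOM. The groups overlapped, and the log2 difference was -0.36 (SE 0.28, edgeR adjusted p = 0.53) for HET and -0.44 (SE 0.41, adjusted p = 0.620) for HOM. The sequences of FZD1, FZD2 and FZD7 are similar, and the sources used here do not say how reads that fit more than 1 of them were counted.

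FZD5 and FZD8 are a related pair that bind several WNT proteins with high affinity. FZD5 (chromosome 2), known as a receptor for WNT signals in the gut and in many cultured lines, was at 32.7, 38.1, 38.1 and 34.5 CPM in WT 1 to WT 4. It ran from 16.4 over a median of 24.3 to 39.5 CPM in HET and was at 24.8 and 22.8 CPM in HOM. The highest of all clones was HET 2, and the other 6 HET clones and both HOM clones lay below all 4 WT clones. The log2 difference was -0.50 (SE 0.19, edgeR adjusted p = 0.185) for HET and -0.59 (SE 0.27, adjusted p = 0.338) for HOM. By clone, the median log2 deviation of the expressed genes nearest to FZD5 ran from -0.26 to 0.02 in WT, -0.13 to 0.78 in HET and -0.13 to -0.09 in HOM. FZD8 (chromosome 10) was at 4.96, 3.86, 2.24 and 4.44 CPM in WT, 2.51 to 6.43 CPM in HET and 6.69 and 4.87 CPM in HOM. WT 3 was the lowest of all clones and HOM 1 the highest, with overlap between all groups. FZD8 differed on the log2 scale by 0.29 (SE 0.27, edgeR adjusted p = 0.599) for HET and 0.58 (SE 0.37, adjusted p = 0.473) for HOM.

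FZD4 (chromosome 11), which besides WNT proteins binds norrin in retinal vessels, was at 21.8, 21.6, 26.9 and 28.5 CPM in WT 1 to WT 4. It ran from 11.7 over a median of 17.2 to 23.7 CPM in HET and was at 16.0 and 17.6 CPM in HOM. HET 1 and HET 2 lay within the WT range, the other 5 HET clones lay below it, and HET 6 was the lowest. On the log2 scale FZD4 differed by -0.44 (SE 0.18, edgeR adjusted p = 0.218) for HET and -0.56 (SE 0.26, adjusted p = 0.347) for HOM. FZD4 overlaps the protein-coding gene PRSS23 on the opposite strand.

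FZD3 (chromosome 8), the closest relative of FZD6 in the set and a receptor needed for axon guidance, was at 44.5, 47.8, 37.0 and 39.5 CPM in WT 1 to WT 4. It ran from 35.4 over a median of 38.8 to 61.3 CPM in HET and was at 46.7 and 41.5 CPM in HOM. HET 3 and HET 7 were above all WT clones, and the remaining clones fell in 1 common range. The log2 difference was 0.03 (SE 0.16, edgeR adjusted p = 0.951) for HET and 0.06 (SE 0.22, adjusted p = 0.912) for HOM. Both FZD3 values lay within 1 SE of 0, beside -0.83 and -0.87 for FZD6 on the same chromosome. Without HET 7 the FZD3 difference of HET from WT was -0.085. In HET 7, FZD3 deviated by 0.63 from the median of the clones in log2 CPM, and its 20 expressed neighbours had a median deviation of 0.57. In HET 3 these values were 0.39 and -0.01. How far the FZD3 level follows its region was not tested.

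LRP6 (chromosome 12), whose cytoplasmic tail docks axin once phosphorylated, was at 91.8, 101, 112 and 104 CPM in WT 1 to WT 4. It ran from 69.9 over a median of 81.9 to 96.0 CPM in HET and was at 88.2 and 78.2 CPM in HOM. HET 3 and HET 7 exceeded WT 1, the lowest WT clone, and the other 5 HET and both HOM clones lay below all WT clones. LRP6 differed on the log2 scale by -0.31 (SE 0.11, edgeR adjusted p = 0.170) for HET and -0.29 (SE 0.16, adjusted p = 0.398) for HOM. LRP6 overlaps BCL2L14 and 3 small pseudogene or snRNA entries on the opposite strand.

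LRP5 (chromosome 11), the second co-receptor and known for its part in bone mass, was at 33.1, 35.2, 34.6 and 39.7 CPM in the WT clones. It ran from 32.3 over a median of 45.5 to 60.7 CPM in HET and was at 38.3 and 55.5 CPM in HOM. HET 1 and HET 6 lay at or below the middle of the WT clones, and the other 5 HET clones lay above all of them. The log2 difference was 0.33 (SE 0.17, edgeR adjusted p = 0.311) for HET and 0.40 (SE 0.23, adjusted p = 0.436) for HOM. The ratio of LRP6 to LRP5, both as CPM per kilobase of exon, was 1.56 to 1.93 in WT, 0.883 to 1.44 in HET and 0.840 and 1.37 in HOM clones. Every edited clone thus had a lower ratio than every WT clone. This ratio was formed after the values were seen and was not tested. How many other pairs of genes separate as fully was not counted.

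HOM and HET clones were also set against each other. No receptor gene was past the threshold, as was no gene of the 20320 by edgeR (0%), and none of the 10 had an unadjusted p under 0.05, which 2.8% of all genes had. DESeq2 and limma voom called none of the 9 genes other than FZD6. For FZD6 the log2 difference HOM minus HET was -0.04 (SE 0.18, edgeR adjusted p = 1.00). Over the 10 genes it ran from -0.12 for FZD4 to 0.28 for FZD8. For no member did both HOM clones lie above, or both below, all HET clones, as they did for 2.49% of all genes. A single HOM clone lay outside the HET range for FZD1 (HOM 2 at 8.38 CPM, below 10.2) and FZD8 (HOM 1 at 6.69 CPM, above 6.43). The standard errors of these HOM minus HET estimates reached 0.37 (FZD2). Differences larger than 1 standard error remain possible, so the estimates do not show equal levels.

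To order the receptors by abundance, CPM was divided by the summed exon length in kilobases from GENCODE 29. FZD6 was highest, with a median of 17.0 CPM per kilobase over the 13 clones, and it exceeded LRP6 in all 13. LRP6 followed at 8.53 and LRP5 at 6.44 CPM per kilobase, with LRP6 above LRP5 in 10 of 13 clones. FZD7 at 4.91 and FZD5 at 3.71 CPM per kilobase did not differ beyond their spread, since FZD7 was the higher in 7 of 13 clones. FZD4 and FZD3 lay together at 2.89 and 2.88 CPM per kilobase, and FZD4 was the higher in 4 of 13. FZD1 followed at 1.70 CPM per kilobase, below FZD3 in all 13 clones. FZD8 and FZD2 were lowest at 1.16 and 1.12 CPM per kilobase, with FZD8 the higher in 6 of 13.

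By median, the order of 3 neighbouring pairs differed between genotypes. In WT the median was 5.41 CPM per kilobase for FZD5 and 3.73 for FZD7, with FZD5 above in 4 of 4 clones. In HET the medians were 3.63 for FZD5 and 5.38 for FZD7 on that scale, with FZD7 above in 5 of 7 clones, and FZD7 was above in 2 of 2 HOM clones. The FZD4 median was above that of FZD3 in WT (3.30 and 3.05 CPM per kilobase), with FZD4 above in only 2 of 4 clones. The FZD4 median was below in HET (2.33 and 2.81), with FZD3 above in 5 of 7 clones. It was also below in HOM (2.27 and 3.20), with FZD3 above in 2 of 2 clones. The FZD2 median was above that of FZD8 in WT (1.42 and 1.03 CPM per kilobase), with FZD2 above in 3 of 4 clones. The FZD2 median was below in HOM (1.07 and 1.43), with FZD8 above in 2 of 2 clones. In HET it was also below (1.08 and 1.16), although FZD8 was above in only 3 of 7 clones. These orders were read from the medians and were not tested. With the longest transcript as the length, FZD3 came before FZD4 over all clones and LRP5 came before LRP6 in HET and HOM.

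The 8 Frizzled genes summed to 48.6 ± 5.89 CPM per kilobase (SD, n = 4) in WT, 34.5 ± 2.08 (n = 7) in HET and 34.6 ± 2.73 (n = 2) in HOM. The lowest WT clone, at 40.8, was above the highest HET clone, at 37.0, on that scale. Without FZD6 the sum was 19.8 ± 1.26 CPM per kilobase in WT (n = 4), 18.3 ± 2.12 in HET (n = 7) and 18.8 ± 0.947 in HOM (n = 2), and the groups overlapped. The FZD6 share of the Frizzled sum was 56.0% to 63.4% in WT, 40.7% to 56.2% in HET and 44.4% and 46.6% in HOM, with HET 6 at the top of the HET range and inside the WT range. The FZD7 share was 6.62% to 8.28% in WT, 9.78% to 17.8% in HET and 15.5% and 17.8% in HOM. Since FZD6 is the largest term and chose the set, these sums and shares are descriptions.

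**Figure D3:**
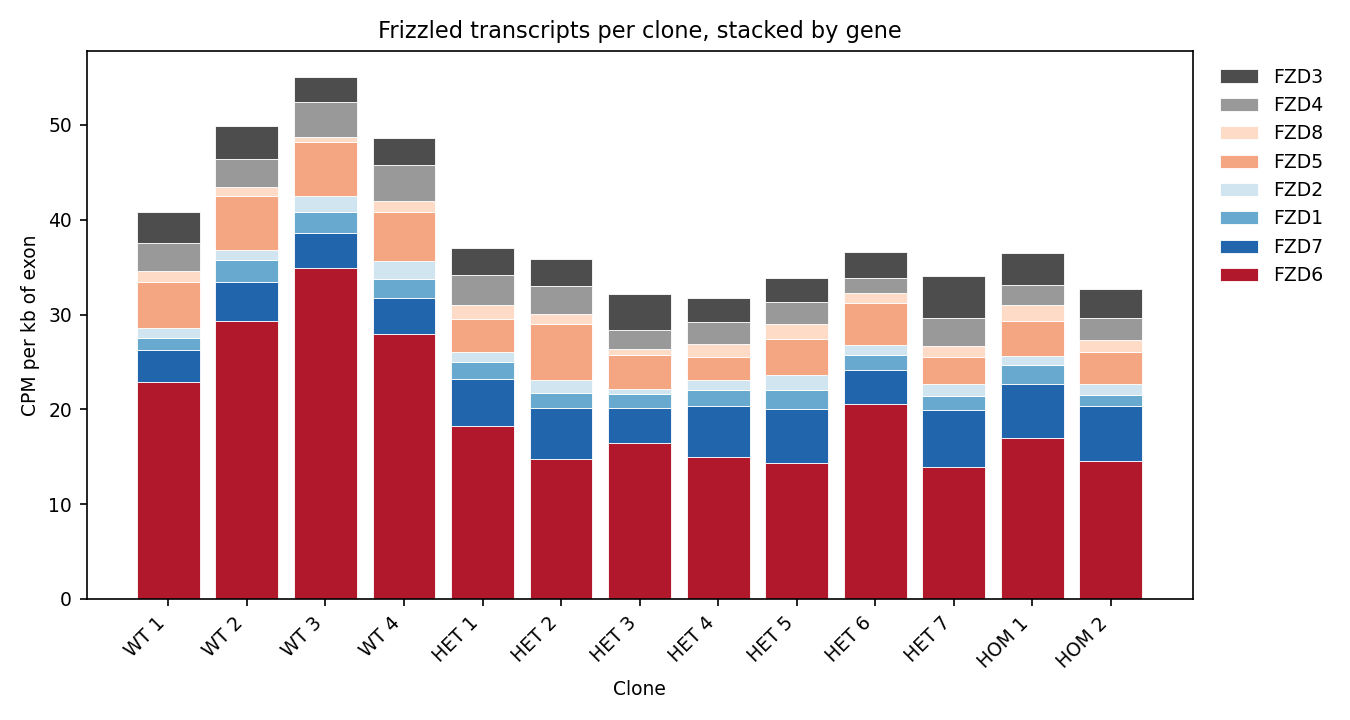
Frizzled transcripts per clone, stacked by gene, in CPM per kilobase of exon (vertical axis, from 0) for the 13 clones. The red FZD6 segment is taller in the 4 WT bars (22.8 to 34.9) than in the 9 edited bars (13.9 to 20.6), whereas the rest of each bar covers 15.7 to 21.1 over all clones.

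Across the 13 clones, the 45 pairs of members had Pearson correlations of log2 CPM from -0.76 (FZD6 with FZD7) to 0.70 (FZD6 with FZD5), with 22 above and 23 below 0 and a median of -0.03. All values come from the same libraries and the clones fall into genotypes, so correlations were also taken after removing genotype means. FZD6 with FZD7 was then at -0.50, FZD6 with FZD5 at 0.30, and FZD6 with LRP5 went from -0.66 to -0.52. FZD6 with LRP6 went from 0.69 to 0.14, and FZD4 with FZD7 from -0.09 to 0.68. The ratio of FZD6 to FZD7 per kilobase was 6.76 to 9.58 in WT, 2.29 to 5.75 in HET and 2.50 and 3.00 in HOM clones. Since FZD6 chose the set, this ratio is a description and was not tested.

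Library make-up was set beside the receptor levels. Protein-coding genes took 96.63% to 96.83% of counts in WT, 96.64% in HET 6, 97.10% to 97.42% in the other 6 HET clones, and 96.45% and 97.27% in HOM 1 and HOM 2. Long intergenic RNAs took 0.389% to 0.482% in WT, 0.440% in HET 6 and 0.247% to 0.348% in the other HET clones. They took 0.531% in HOM 1, the highest of all clones, and 0.311% in HOM 2. HET 6 had the highest FZD6 level among edited clones, with FZD7 and LRP5 levels in or next to the WT range, but the lowest FZD4 level of all. HOM 1 had the lowest protein-coding share of all clones, with FZD6 at 69.2 CPM and FZD7 at 21.9 CPM, both among the other edited clones. The part of library make-up in these receptor levels was not tested. Clone names carry a leading number whose meaning the labels do not give. WT 4, HET 7 and HOM 2 share 1 such number, with FZD6 at 114, 56.4 and 59.0 CPM and FZD7 at 14.7, 23.4 and 22.4 CPM. WT 1 and WT 2 share another that no edited clone has, with FZD6 at 92.9 and 119 CPM and FZD7 at 13.0 and 15.7 CPM. Leaving out each clone in turn, HET 6 included, gave a fitted FZD6 difference of HET from WT of -0.93 to -0.73 on the log2 scale. Without WT 2, HET 2 and HOM 1 together, FZD6 differed from WT by -0.80 in HET and -0.98 in HOM, where HOM 2 was the only HOM clone left. Since FZD6 chose the set, these values are descriptions.

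**Figure D4:**
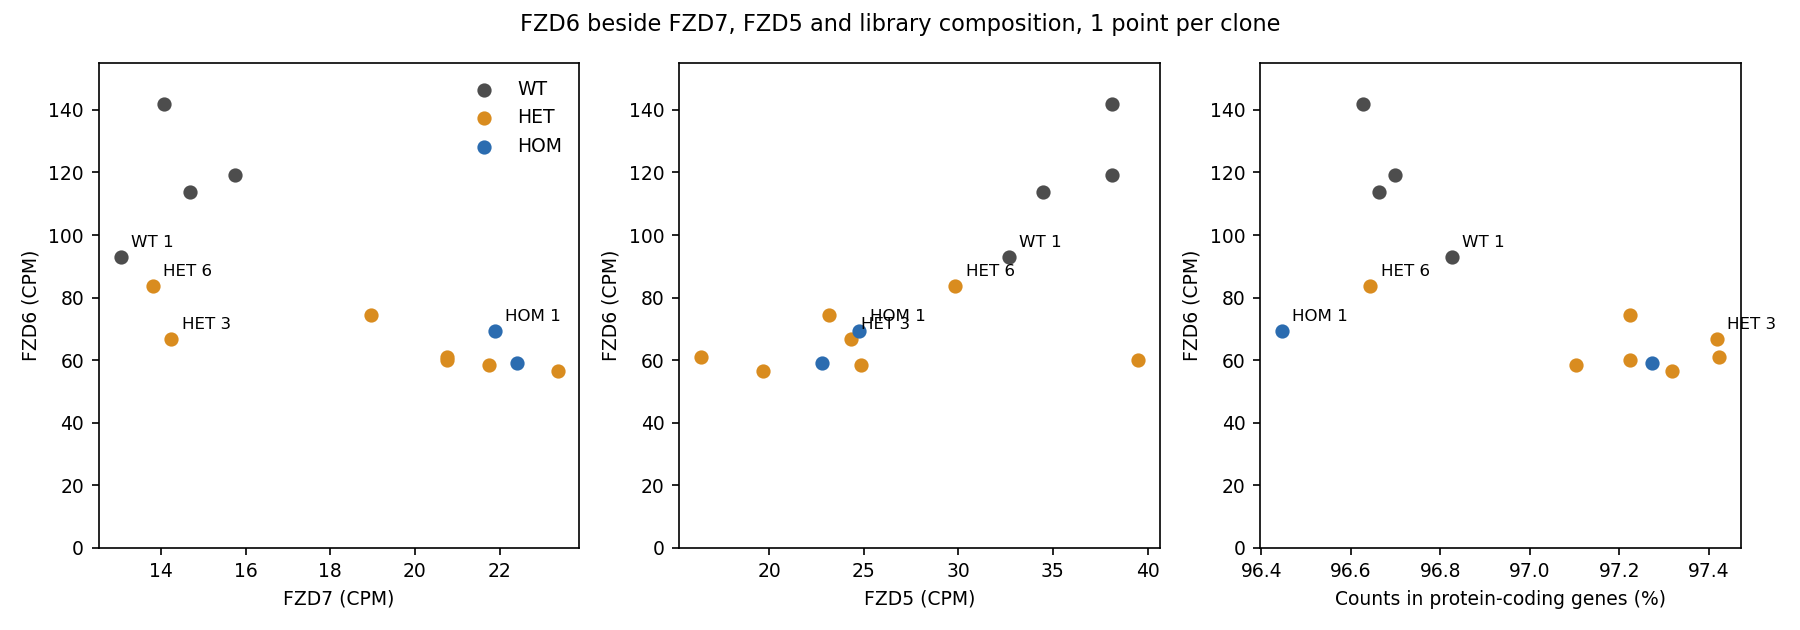
FZD6 (vertical axes, CPM) against FZD7 (CPM), FZD5 (CPM) and the percent of counts in protein-coding genes, 1 point per clone coloured by genotype. HET 6 and WT 1 are neighbours in the FZD7 panel at 83.6 and 92.9 CPM of FZD6, and HOM 1 has a low protein-coding share with an FZD6 level among the edited clones.

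Among 12426 protein-coding genes with a mean of at least 1 CPM, the profile most like that of FZD6 over the 13 clones was GOLPH3, which encodes a Golgi phosphoprotein that helps retain glycosyltransferases (Pearson r = 0.98 on log2 CPM). GOLPH3 averaged 132 ± 14.4 CPM over the WT clones (SD, n = 4), against 94.9 ± 5.64 CPM over HET (SD, n = 7) and 89.4 ± 7.40 CPM over HOM clones (SD, n = 2). Since the genes here were ranked by likeness to FZD6, which chose the set, such group differences follow from the ranking. The next were PWWP2A, a chromatin protein that binds H2A.Z (r = 0.96), IFNGR1, a chain of the interferon gamma receptor (r = 0.94), EPB42, a red cell membrane protein (r = 0.94, at 2.02 ± 0.814 CPM in WT, n = 4), and SIRT1, a NAD-dependent deacetylase (r = 0.94). The lowest were ATP5MC1, a subunit of the mitochondrial ATP synthase ring (r = -0.96), EIF3K, a subunit of translation initiation factor eIF3 (r = -0.95), and SEC61B, a subunit of the ER protein channel (r = -0.95). The middle 90% of genes lay between -0.79 and 0.72, so strong correlations were common in these libraries. With genotype means removed GOLPH3 ranked the third at 0.92, and PWWP2A was at 0.82, IFNGR1 at 0.77, EPB42 at 0.90 and SIRT1 at 0.81.

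Outside the receptors, 10 lists of WNT pathway genes held 121 genes, of which 107 were tested. In HET against WT edgeR called 0 of the 107, with 59 above and 48 below 0 and a median log2 difference of 0.03; 14 (13.1%) had an unadjusted p under 0.05, beside 18.5% of all genes. DESeq2 called 3 (WNT3A, RNF43 and CCND1; 2.8%, beside 5.28% of all genes) and limma voom called 13 (12.1%, beside 20.7%). In HOM against WT edgeR again called 0, with 15 (14%, beside 14.4% of all genes) at an unadjusted p under 0.05, a median of -0.07, and 1 call each (0.935%) by DESeq2 (WNT3) and limma voom (SFRP5), which called 1.77% and 3.33% of all genes. In HOM against HET edgeR called 0, with 1 (0.935%, beside 2.8% of all genes) at an unadjusted p under 0.05 and a median of -0.11. The genes named next are the 2 of lowest p in each list among those with a mean of at least 1 CPM, and none passed the threshold.

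Among the ligands, 8 of 14 tested lay above 0 in HET against WT. WNT3A, the ligand most used to activate beta-catenin in culture, was at 0.475 ± 0.313 CPM in WT (SD, n = 4) and 1.92 ± 1.69 CPM in HET (n = 7), a log2 difference of 2.02 (SE 0.75, edgeR adjusted p = 0.178). WNT3 averaged 11.3 ± 2.31 CPM over WT (n = 4), 8.37 ± 1.07 CPM over HET (n = 7) and 6.22 ± 0.404 CPM over HOM clones (n = 2), and its log2 difference was -0.43 in HET (SE 0.17, edgeR adjusted p = 0.206). Below that level, WNT2, at a mean of 0.339 CPM and named after its values were seen, had the lowest p of the list, with a log2 difference of -2.01 (SE 0.56, edgeR adjusted p = 0.103). WNT2 was called by limma voom, without WT 1 and without HET 6. Among genes for ligand secretion and receptor maturation, 4 of 8 lay above 0, with TRABD2B, a protease that clips WNT proteins, at 0.70 and SHISA3, which holds Frizzled proteins in the ER, at 0.69. Among the other Frizzled-class receptors, SMO, the Hedgehog signal transducer, was at a log2 difference of 0.21 and FZD9 at -0.14. FZD10, at a mean of 0.404 CPM and named after its values were seen, had the lowest p of this list. Its level averaged 0.101 CPM over WT and 0.608 CPM over HET clones, a log2 difference of 2.56 (SE 1.02, edgeR adjusted p = 0.206).

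Of other WNT receptors and partners, 6 of 10 tested lay below 0. TSPAN12, a tetraspanin that works with FZD4 in norrin signalling, was at -0.79 (SE 0.35, edgeR adjusted p = 0.247) and at -0.099 with 1 surrogate variable, and ROR1, a receptor tyrosine kinase-like receptor for WNT5A, at -0.30 on the log2 scale. In the list for receptor turnover, RNF43 averaged 10.6 ± 1.95 CPM over WT (SD, n = 4), 17.6 ± 5.84 CPM over HET (n = 7) and 18.3 ± 2.59 CPM over HOM clones (n = 2). HET 2 and HET 6 lay within the WT range and the other edited clones above it; the log2 difference was 0.73 in HET (SE 0.24, edgeR adjusted p = 0.144). LGR4, an R-spondin receptor, was at -0.15. Among inhibitors, 7 of 12 lay above 0, with SFRP1, a secreted WNT binder, at 2.67 (SE 1.5, edgeR adjusted p = 0.359) and ranging over 0.0187 to 2.93 CPM in WT and 0.0483 to 17.8 CPM in HET, and DKK3 at 0.33. The SFRP1 difference was 4.59 without WT 3 and 4.84 with 1 surrogate variable.

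Downstream of the receptors, 12 of 19 beta-catenin control genes lay above 0. APC, the scaffold of the destruction complex, was at 108 ± 9.75 CPM in WT (SD, n = 4) and 86.1 ± 9.29 CPM in HET (n = 7), a log2 difference of -0.33 (SE 0.11, edgeR adjusted p = 0.141), and CSNK1A1, the kinase that primes beta-catenin, was at 0.26. Of 11 nuclear partners 5 lay above 0, with the co-repressors TLE1 at -0.42 and TLE3 at 0.38. Of 10 planar polarity genes, the branch FZD6 is best known from, 6 lay above 0, with the scaffold SCRIB at 0.35 and the cadherin CELSR3 at -0.58. Of 13 WNT target genes 8 lay above 0. CCND1, the G1 cyclin, was at 13.8, 6.05, 1.22 and 4.28 CPM in WT, from 2.05 over a median of 22.2 to 121 CPM in HET, and at 66.9 and 42.9 CPM in HOM. HET 6 was the lowest HET clone and lay within the WT range, and all other edited clones were above that range; the log2 difference was 3.05 (SE 1.02, edgeR adjusted p = 0.156), 3.75 without WT 1 and 1.25 with 1 surrogate variable. NKD2, a feedback inhibitor that binds Dishevelled, was at 0.86 (SE 0.31, edgeR adjusted p = 0.170). AXIN2, the target most often used as a readout of beta-catenin, was at -0.00 and LEF1 at 0.24, named after their values were seen.

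**Figure D5:**
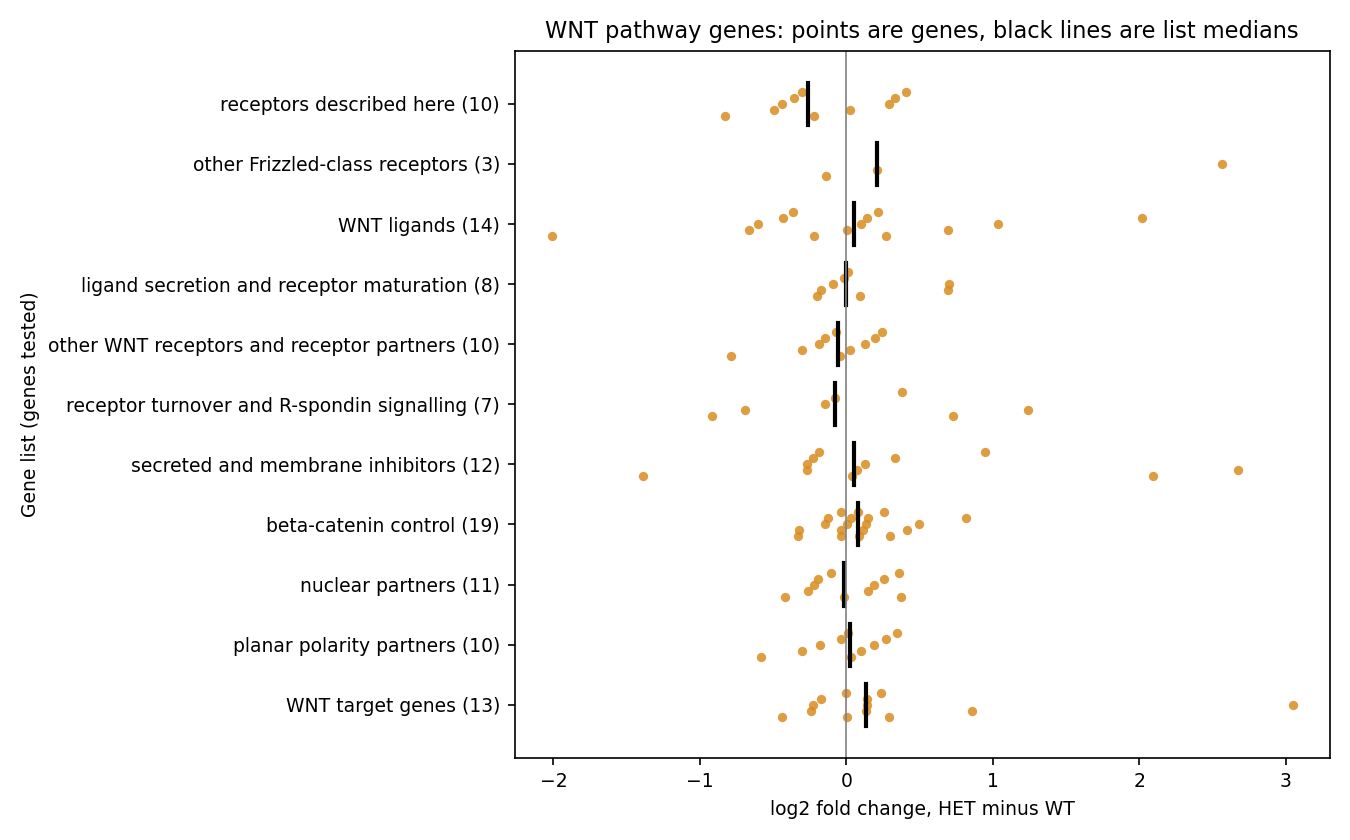
Log2 fold change HET minus WT (horizontal axis) of each tested gene in the receptor set and in 10 WNT pathway lists (rows, with the number tested); points are genes and black lines are list medians. The receptor median is -0.26 with FZD6, which chose the set, and -0.22 without it. CCND1, SFRP1 and FZD10 are the points farthest to the right.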

How the data were processed

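RNA-seq libraries of the 13 clones were made with the TruSeq Stranded mRNA kit, per the labels' protocols. The authors deposited 1 table of raw read counts per gene, made with Trimmomatic 0.36, STAR and featureCounts 1.5.3 on hg19, per the submitters' processing notes. The sources used here do not give the annotation, the strand setting or the treatment of multiply mapped reads. Symbols, chromosomes and exon lengths came from GENCODE 29, built on another assembly, for 51204 of 56238 rows. Groups follow the genotype labels. The main test was edgeR 4.0.16 (quasi-likelihood F test, robust, TMM, filterByExpr, 20320 genes tested, R 4.3.3) on all 13 libraries without covariates, two-sided, with Benjamini-Hochberg adjustment over all genes and a threshold of 0.05; the SE is the size of the log2 fold change divided by the square root of F, and log2 CPM used a prior count of 2. In counts simulated for HET against WT over 19837 genes, the test recovered 54% of 100 genes changed by 1 and 93% of 100 changed by 2 on the log2 scale, with 8 false calls. The changed genes were picked above a minimum expected count, and each gene was drawn independently. Variation shared by many genes within a clone was not simulated, so these rates need not hold for the real clones.

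The members, gene lists and tests were chosen with earlier results of these data known. Named genes are the 10 members and FLCN, the 2 genes of lowest p per pathway list (or those past the threshold) with a mean of at least 1 CPM, and the 5 most and 3 least correlated with FZD6. Alternatives were DESeq2 1.42.0, limma 3.58.1 voom, 1 surrogate variable (sva 3.50.0), RLE scaling, other filters, only the groups compared, no robust estimation, removal of chromosome medians, and leaving out libraries. NEFL, LHX1 and PECAM1 of the marker lists were not analysed here. Of the 293T markers, 1 is not reported here. No pair of libraries within a group agreed within sampling noise. RefSeq promoter sequences were matched for 5 of 10 members.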

Additional observations from a re-analysis of the deposited data

How the results depend on the processing

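The FZD6 difference from WT in HET ran from -0.95 (limma voom) to -0.61 (1 surrogate variable), and from -0.93 to -0.73 when each clone was left out. In HOM the FZD6 difference was -0.64 with 1 surrogate variable and -0.98 to -0.77 when each clone was left out. The set was chosen on this difference, and every edited clone lay below every WT clone. Leaving out a clone could therefore not reverse its direction, and the kept direction is not evidence for FZD6. For the other 9 members, 591 of 621 values kept direction and side of the threshold, 2 passed it (FZD7 and LRP6 in HET by limma voom), and 28 changed sign. The count of genes called in HET against WT (26) was 1073 by DESeq2, 90 without a filter, 52 at a mean CPM of at least 1, 0 with only the groups compared, 4205 by limma voom, 0 with 1 surrogate variable, 181 with chromosome medians removed, 0 without WT 2, HET 2 and HOM 1, and 0 to 1550 without 1 clone (1445 without WT 1, 1550 without HET 6). In HOM against WT (0) it was 360 by DESeq2, 676 by limma voom and 0 to 246 without 1 clone (246 without WT 1). In HOM against HET (0) it was 15 by DESeq2, 1 each at a mean CPM of at least 1, by limma voom, with 1 surrogate variable and with chromosome medians removed, and 0 to 35 without 1 clone. Pathway genes called (0) numbered 3 by DESeq2, 1 without a filter, 13 by limma voom and 0 to 4 without 1 clone in HET against WT, and 1 by DESeq2 and 1 by limma voom in HOM against WT. Signs changed with 1 surrogate variable for HET against WT in FZD2 (0.0090), FZD3 (-0.24), FZD9 (0.14) and FLCN (0.46) and for HOM against WT in FZD3 (-0.19) and FLCN (0.23); at a mean CPM of at least 1 for FZD3, HET against WT (-0.0074); and for HOM against HET in FZD6 by limma voom (0.020), in FZD2 (0.035) and FZD5 (0.0029) with chromosome medians removed, and in FZD2 (0.075), FZD3 (-0.070), FZD4 (5.23e-05) and LRP6 (-0.075) without the 3 clones. Leaving out each clone gave, for HET against WT, FZD3 -0.085 to 0.079, FZD9 -0.24 to 0.085 and FLCN -0.24 to 0.14; for HOM against WT, FZD3 -0.014 to 0.14; and for HOM against HET, FZD1 -0.45 to 0.20, FZD2 -0.21 to 0.034, FZD3 -0.036 to 0.15, FZD5 -0.18 to 0.045, FZD6 -0.14 to 0.062, LRP5 -0.24 to 0.32, LRP6 -0.064 to 0.083 and FLCN -0.63 to 0.026. The cause of these changes was not tested. Fits that left out HOM 1 or HOM 2 rested on the other HOM clone alone. No paired analysis was possible because the labels give no replicate numbers and the groups share only 1 leading number of the clone names, whose meaning is not given. FZD2 and FZD8, at 48 to 203 and 104 to 345 counts per library, are the members most limited by depth.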
